A study of Homo sapiens with 35 samples.

Results

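BE(2)-C neuroblastoma cells that had been kept for 72 h in 1 mM valproic acid (VPA) were compared with BE(2)-C cells kept for 72 h in the vehicle, DMSO. The comparison was made between the 3 arrays whose titles name VPA at 72 h and the 2 arrays whose titles name DMSO at 72 h, 5 of the 35 arrays, and it covered all 11884 genes that the array's probe sets name. The study profiled 12 groups in all: 1 mM VPA, 5 µM all-trans retinoic acid (ATRA), both agents together, and DMSO, each for 6, 24 and 72 h, with 3 arrays per group apart from DMSO at 72 h, which has 2. RNA was hybridised as biotin-labelled cRNA to Affymetrix expression arrays, and the series title gives the aim as an expression signature for neuroblastoma differentiation. Set beside the comparison at 72 h are VPA and DMSO cells at 6 h and at 24 h (3 arrays each), and cells given ATRA with VPA or ATRA alone for 72 h (3 arrays each). All groups are the same cell line in the same medium, so the values describe 1 neuroblastoma line grown in culture. The labels speak of treatment in triplicate without saying that the cultures were started separately. The p-values therefore measure the spread between arrays, pooled over all 12 groups, and this spread may be partly technical.

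VPA is a branched short-chain fatty acid used against epilepsy and in bipolar disorder, and it inhibits the class I histone deacetylases (HDACs). These enzymes remove acetyl groups from histone tails and from other proteins, work inside co-repressor complexes at many promoters, and keep sets of lineage genes low. Neuroblastoma arises from sympathetic neural crest cells, whose noradrenergic state rests on transcription factors such as HAND2, GATA3 and ISL1, and BE(2)-C is a widely used line with amplified MYCN. HDAC inhibitors and retinoids are both used in culture to push such cells towards differentiation.

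The deposited values were intensities on a linear scale made with robust multi-array averaging (RMA). Across the 5 arrays the median intensity lay between 53.7 and 55.8, and the mean correlation of an array with the others of its own group was between 0.9965 and 0.9977. The noradrenergic identity of the cells could be seen in the levels: 10 of the 11 measured markers of the noradrenergic state averaged 64 or more, HAND2 being the exception at 31.1 in VPA cells and 32.6 in DMSO cells. No marker of Schwann cells (4 measured), epithelium (6 measured) or blood cells (5 measured) reached that level, while 3 of 7 fibroblast markers did, DCN among them. On the wider list of 13 epithelial genes KRT19, a keratin, read 44.1, 41.3 and 54.1 in the VPA arrays, against 66.8 and 94.4 in the DMSO arrays (log2 change -0.77 ± 0.23, adjusted p = 0.036), and lost its call without DMSO replicate 2, VPA replicate 1 or VPA replicate 2. DMSO at 24 h replicate 1 stood apart, with a median intensity of 43.6 and 218 genes more than 1 log2 unit below the other arrays, and it enters the comparison at 24 h. Through the pooled spread it also enters the tests at the other times. No detection calls came with the values. The lower quartile of intensity was between 20.8 and 23.6 on all 35 arrays, and values near it carry little information on order.

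At 72 h, 796 genes differed between VPA and DMSO cells, which is 6.7% of the genes tested (limma, adjusted p under 0.05 by Benjamini-Hochberg). Of these, 539 were higher with VPA (4.54% of all genes) and 257 lower (2.16%), and 96 differed at least 2-fold, 90 of them upwards. The 15 largest rises include matrix and cell surface genes such as LUM, FN1 and CXADR, and the 15 largest falls include vesicle and histone genes such as SLC18A1 and H2AC18. All 796 had arrays that did not overlap between the groups, a property that 41.5% of all genes shared. The median change over all genes was -0.02 on the log2 scale. The DMSO group carried 2 arrays, and the count depended on both: it was 390 without DMSO replicate 1 and 318 without DMSO replicate 2, when the lone array left was assumed to vary like the other groups. Within those smaller sets, 382 and 315 genes were among the 796.

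**Figure D1:**
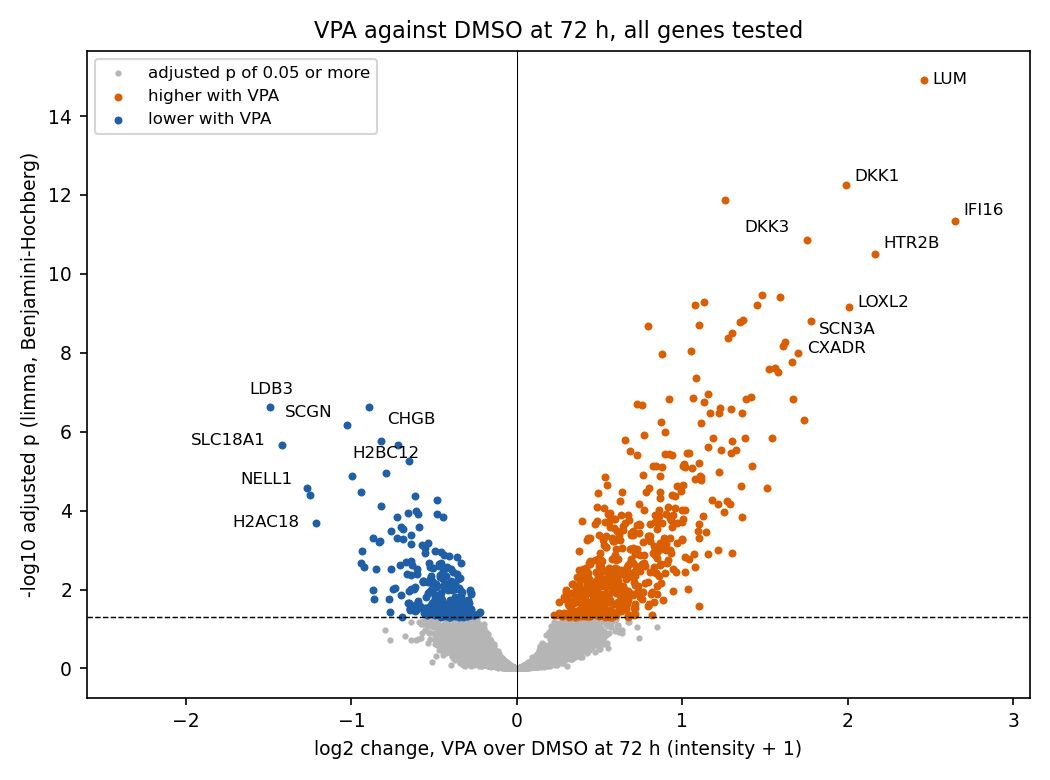
Log2 change between VPA and DMSO cells at 72 h (horizontal axis, intensity + 1) against the negative log10 of the adjusted p (vertical axis) for all 11884 genes, with the 539 higher in orange, the 257 lower in blue and the dashed line at an adjusted p of 0.05. The rises reach further (IFI16 at 2.65) than the falls (LDB3 at -1.49).

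Among genes with a mean intensity of at least 64 in the brighter group, the largest rise was in IFI16, a nuclear sensor of double-stranded DNA. Its intensity was 215, 263 and 228 in the VPA arrays, against 32.2 and 41.5 in the DMSO arrays. It was 6.27-fold higher with VPA (log2 change 2.65 ± 0.17, adjusted p = 4.6e-12; ± is the standard error of the log2 change from the fit, here and below), and every VPA array lay far above both DMSO arrays. The gene for lumican, LUM, a collagen-binding proteoglycan of connective tissue, read 1111, 1096 and 1118 in the VPA arrays, against 215 and 187 in the DMSO arrays. It was 5.51-fold higher (log2 change 2.46 ± 0.11, adjusted p = 1.2e-15), with almost no spread among the VPA arrays. HTR2B, a serotonin receptor coupled to phospholipase C, read 686, 609.6 and 615 in the VPA arrays, against 128 and 156 in the DMSO arrays. It was 4.48-fold higher (log2 change 2.17 ± 0.15, adjusted p = 3.2e-11), and the groups did not overlap. LOXL2, which crosslinks collagen by oxidising lysines, read 169, 199 and 195 in the VPA arrays, against 44.6 and 46.9 in the DMSO arrays. The probe set used for LOXL2 gave a log2 change of 2.01 ± 0.16 (adjusted p = 6.8e-10), while the other two dimmer probe sets of the gene changed by -0.14 and 0.18, and their mean with it gave 0.68.

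Among the remaining members of the 15 largest rises, TSPAN8, a tetraspanin of the cell surface, read 373, 435 and 359 in the VPA arrays, against 125 and 107 in the DMSO arrays (log2 change 1.73 ± 0.20, adjusted p = 5.0e-07). IL15, a cytokine that supports natural killer and memory T cells, read 133, 122 and 98.5 in the VPA arrays, against 38.2 and 34.0 in the DMSO arrays (log2 change 1.67 ± 0.18, adjusted p = 1.4e-07), although a second, dimmer probe set changed by 0.33 and did not pass. In both genes the lowest VPA array was well above the highest DMSO array. MRC2, an endocytic receptor that takes up collagen fragments, read 517, 587 and 658 in the VPA arrays, against 189.7 and 179 in the DMSO arrays (log2 change 1.66 ± 0.16, adjusted p = 1.7e-08). SLITRK5, a transmembrane protein that acts on neurite growth and synapse formation, read 284, 328 and 301 in the VPA arrays, against 93.7 and 103 in the DMSO arrays (log2 change 1.62 ± 0.15, adjusted p = 5.3e-09). FOXF1, a forkhead factor of embryonic mesenchyme, read 71.2, 94.2 and 87.0 in the VPA arrays, against 26.9 and 27.6 in the DMSO arrays (log2 change 1.58 ± 0.16, adjusted p = 3.1e-08), and its DMSO arrays lay close to the lower quartile of intensity. For all these genes the VPA arrays were the high ones.

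**Figure D2:**
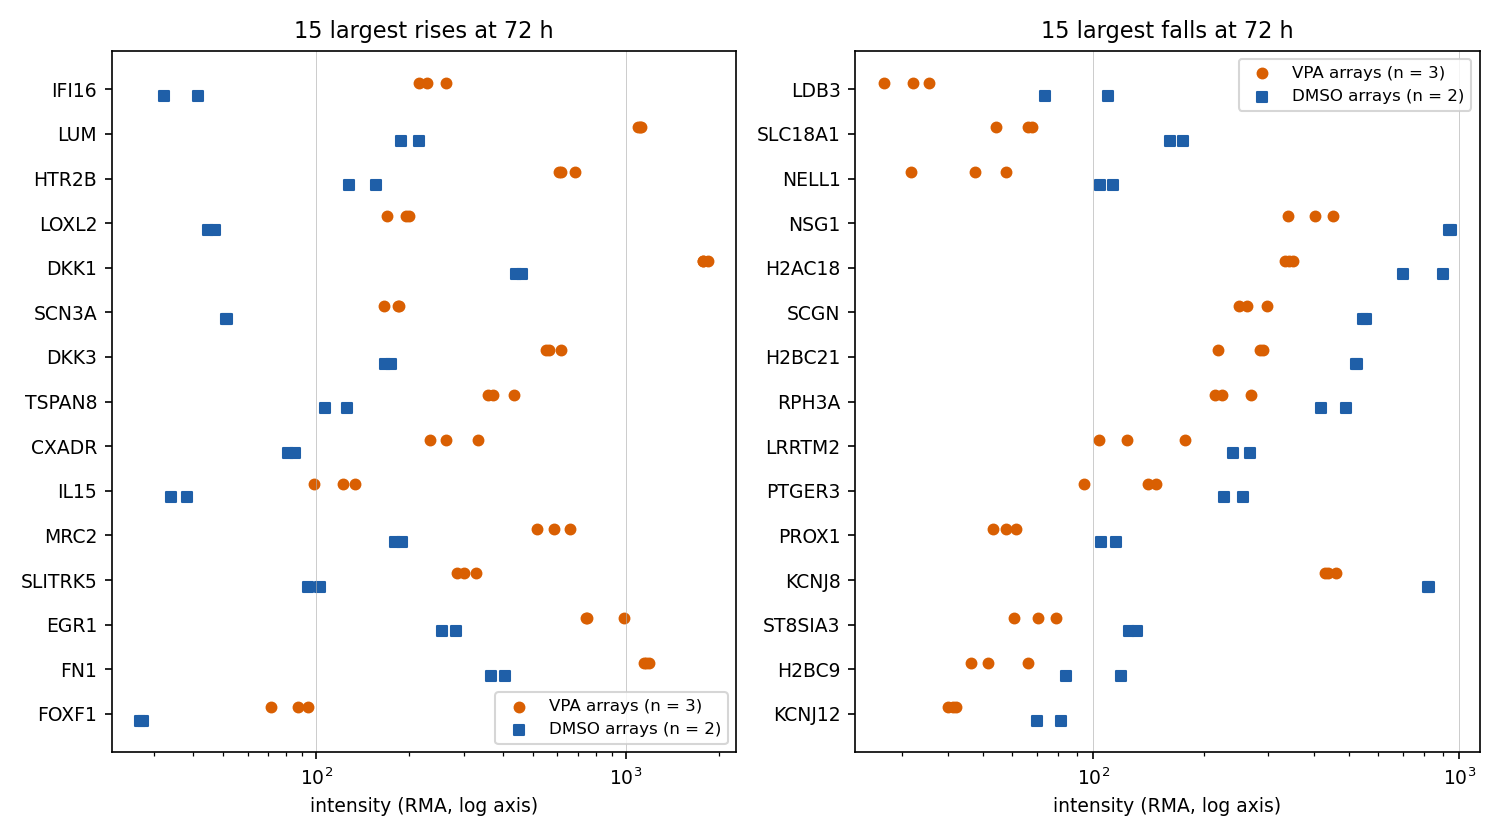
Intensity (log axis) in each VPA array (orange circles, n = 3) and each DMSO array (blue squares, n = 2) at 72 h for the 15 genes with the largest rises (left) and the 15 with the largest falls (right). In every row the VPA arrays stand on one side of both DMSO arrays, for example 1096 to 1118 against 187 and 215 for LUM.

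Genes read out from, or acting in, Wnt signalling were among the strongest rises. Wnt ligands bind Frizzled receptors and stabilise beta-catenin, and secreted Dickkopf proteins block the co-receptors. DKK1, the Dickkopf inhibitor that Wnt signalling itself induces, read 1776, 1838 and 1776 in the VPA arrays, against 442 and 463 in the DMSO arrays. It was 3.96-fold higher (log2 change 1.99 ± 0.11, adjusted p = 5.7e-13), and the VPA arrays were tightly grouped. DKK3, a divergent member of the same family, read 616, 566 and 552 in the VPA arrays, against 167 and 174 in the DMSO arrays (log2 change 1.75 ± 0.12, adjusted p = 1.4e-11), with smaller changes of 0.85 and 0.01 at its dimmer probe sets. Of 12 measured Wnt genes, 5 were higher and 0 lower, against 4.54% and 2.16% of all genes, with a list median of 0.27. Besides DKK1 these were the receptors FZD7 (0.96) and FZD2 (0.64), the nuclear factor TCF7L2 (0.48) and the secreted Frizzled-like inhibitor SFRP1 (0.44). Without DMSO replicate 2 the count of higher genes was 3. LGR5, a receptor for R-spondins and a common Wnt readout, did not pass at 72 h (log2 change 0.29 ± 0.18, adjusted p = 0.44).

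The matrix and mesenchymal genes that passed the test were all higher with VPA. Of 44 measured, 12 were higher with VPA and 0 were lower, against 4.54% and 2.16% of all genes. A positive change was seen in 33 of the 44 (median 0.14). FN1, which encodes fibronectin, read 1146, 1159 and 1191 in the VPA arrays, against 408 and 367 in the DMSO arrays. It was 3.01-fold higher (log2 change 1.59 ± 0.12, adjusted p = 3.8e-10), and 4 of its 6 probe sets gave 1.43 to 1.72 while a dim pair showed -0.29 and -0.12. The collagen chains COL3A1 (1.27), COL5A1 (1.19), COL6A2 (1.16), COL1A1 (0.71) and COL6A1 (0.33) were all called, as were the proteoglycan VCAN (1.00), smooth muscle actin ACTA2 (0.97), tropomyosin TPM1 (0.54) and the mesenchymal factor TWIST1 (0.39). ACTA2, COL1A1 and COL6A1 lost their calls with the mean of all probe sets. A second probe set changed by -0.13 in ACTA2 and by 0.10 in COL6A2, and neither passed. The other COL1A1 probe sets changed by 0.18, -0.06 and -0.21 and did not pass. COL1A1 averaged 34.4 in VPA cells and 20.6 in DMSO cells, the latter near the lower quartile of intensity. COL5A1, a minor fibrillar collagen that starts fibril assembly, read 515, 536 and 489 in the VPA arrays, against 233 and 217 in the DMSO arrays (log2 change 1.19 ± 0.15, adjusted p = 1.4e-06). The summed level of 7 fibroblast markers was between 2316 and 2511 in the VPA arrays, against 1397 and 1398 in the DMSO arrays. Of those 7, LUM, COL3A1 and COL1A1 were higher. DCN, which encodes the related proteoglycan decorin, averaged 1022 in VPA cells and 1033 in DMSO cells, while COL1A2, POSTN and PRRX1 had group means between 15.4 and 24.0. The part of such cells in the matrix result was not tested. In bulk samples a change in the share of cells of a type and a change in RNA per cell cannot be told apart. COL1A1 and COL6A1 lost their calls whichever of the 5 arrays was left out.

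Of 41 measured genes of cell adhesion and the membrane skeleton, 11 were higher, 1 was lower and 29 did not pass, against 6.7% of all genes called. CXADR, a tight-junction protein that also serves as the receptor of coxsackieviruses and adenoviruses, read 263, 233 and 334 in the VPA arrays, against 85.4 and 81.2 in the DMSO arrays. It was 3.25-fold higher (log2 change 1.70 ± 0.16, adjusted p = 1.0e-08). EPB41L2, which ties membrane proteins to the spectrin and actin skeleton, read 157, 130.1 and 114 in the VPA arrays, against 53.6 and 39.0 in the DMSO arrays (log2 change 1.51 ± 0.22, adjusted p = 2.7e-05). CDH11, a cadherin typical of mesenchymal cells, read 2137, 2188 and 2141 in the VPA arrays, against 779 and 797 in the DMSO arrays (log2 change 1.45 ± 0.12, adjusted p = 6.3e-10), and in all 3 genes the groups were clearly apart. The other rises were MCAM (0.82), CNTNAP2 (0.64), ANK2 (0.52), the integrin subunits ITGA6 (0.50), ITGB5 (0.43) and ITGB1 (0.30), CADM1 (0.31) and ALCAM (0.30), and the fall was the paranodal protein CNTNAP1 (-0.46). ITGB1 was called on the brightest of its 5 probe sets, and the mean of all 5 gave -0.07 (adjusted p = 0.66). Without DMSO replicate 1, 5 members were higher, and without DMSO replicate 2, 3 were.

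The counts for ion channels and axon guidance stand beside 4.54% of all genes higher and 2.16% lower. SCN3A, a voltage-gated sodium channel of embryonic neurons, read 185, 166 and 184 in the VPA arrays, against 51.0 and 51.5 in the DMSO arrays. It was 3.43-fold higher (log2 change 1.78 ± 0.15, adjusted p = 1.6e-09), and all VPA arrays stood well above both DMSO arrays. Of 34 genes on a list of voltage-gated and other ion channels, 4 were higher and 1 lower. The rises were SCN3A, SCN1A, the calcium-activated KCNN3 and the sodium channel subunit SCN3B (0.41), and the fall was the leak channel KCNK3 (-0.44). Without DMSO replicate 1 or without DMSO replicate 2, 1 of these rises remained called, and SCN1A and KCNN3 were dim, with no array above 36.3. In axon guidance, 6 of 44 genes were higher and 0 lower. They were the semaphorins SEMA3E (0.94), SEMA3A (0.80), SEMA4F (0.67) and SEMA3F (0.56), the semaphorin receptor PLXNC1 (0.87) and the ephrin receptor EPHA2 (0.71). SEMA3F was the brightest of them at 455, 452 and 431 in the VPA arrays, against 306 and 297 in the DMSO arrays, and no array of the other 5 exceeded 66.8. The dimmer probe sets of PLXNC1 changed by 0.05 and 0.15, and that of SEMA4F by 0.12, and did not pass. SEMA3F lost its call whichever of the 5 arrays was left out. A pair of inward rectifier potassium channels fell. KCNJ8, a pore subunit of ATP-sensitive channels, read 429, 438 and 460.2 in the VPA arrays, against 821 and 827 in the DMSO arrays (log2 change -0.90 ± 0.10, adjusted p = 2.4e-07). KCNJ12 read 39.99, 41.5 and 42.1 in the VPA arrays, against 81.7 and 70.1 in the DMSO arrays (log2 change -0.86 ± 0.23, adjusted p = 0.017), and its probe sets may also detect a near-identical copy.

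The MHC class I genes HLA-C, HLA-E and HLA-B, whose products present peptides to immune cells, rose. HLA-C read 1194, 1217 and 1333 in the VPA arrays, against 482 and 483 in the DMSO arrays. It was 2.58-fold higher (log2 change 1.37 ± 0.12, adjusted p = 1.5e-09), and its other probe sets changed by 0.61 to 1.20. HLA-E, which engages inhibitory receptors of natural killer cells, read 203, 208 and 237 in the VPA arrays, against 106 and 71.9 in the DMSO arrays (log2 change 1.29 ± 0.20, adjusted p = 6.8e-05). HLA-B read 322, 348 and 347 in the VPA arrays, against 204 and 185 in the DMSO arrays (log2 change 0.80 ± 0.15, adjusted p = 5.1e-04). In each of the 3 genes the VPA arrays were the higher ones. The probe sets used can take up signal from other class I genes, so the split of the rise between them is uncertain. Of 24 measured MHC class I and interferon genes, 5 were higher and 0 lower (median 0.20), against 4.54% and 2.16% of all genes. The other calls were the antiviral enzyme OAS1 (1.11) and IFI6 (0.68), a mitochondrial interferon-induced protein. The promoters of HLA-C (chr6:31272043-31272342, minus strand) and HLA-B (chr6:31357130-31357429, minus strand) are shown because class I promoters share known elements; they are RefSeq sequences of GRCh38.p14 from 250 bases before to 50 after the start site, 5′ to 3′, with the enhancer A element and the letters TGACGC, part of the SXY module, in capitals.
HLA-C: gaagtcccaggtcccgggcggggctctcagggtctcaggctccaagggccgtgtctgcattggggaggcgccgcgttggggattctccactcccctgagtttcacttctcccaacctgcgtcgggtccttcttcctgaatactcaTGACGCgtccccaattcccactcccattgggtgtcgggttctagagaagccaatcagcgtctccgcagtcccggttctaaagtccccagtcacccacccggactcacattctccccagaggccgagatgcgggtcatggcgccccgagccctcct
HLA-B: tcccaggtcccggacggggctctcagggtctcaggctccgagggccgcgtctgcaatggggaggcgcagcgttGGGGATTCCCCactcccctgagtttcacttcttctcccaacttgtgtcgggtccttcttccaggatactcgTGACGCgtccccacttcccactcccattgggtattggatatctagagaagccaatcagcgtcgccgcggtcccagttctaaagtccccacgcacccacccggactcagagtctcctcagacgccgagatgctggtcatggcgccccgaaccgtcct
Searched on both strands, the enhancer A letters capitalised in HLA-B were absent from the HLA-C window and present in 3 (0.0313%, HLA-B included) of the 9592 promoters of tested genes in the RefSeq table, and TGACGC was present in both windows and in 12.3% of all. These matches describe letters, not binding.

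Immediate early genes, whose transcription follows growth factor and depolarising signals quickly, gave 7 rises and 1 fall at 72 h. EGR1, a zinc finger factor, read 989, 751 and 745 in the VPA arrays, against 255 and 282 in the DMSO arrays. It was 3.06-fold higher (log2 change 1.61 ± 0.15, adjusted p = 6.7e-09), and its second probe set gave 0.84. FOS, a subunit of the AP-1 factor, read 111, 81.3 and 83.0 in the VPA arrays, against 37.2 and 32.7 in the DMSO arrays (log2 change 1.36 ± 0.20, adjusted p = 2.3e-05). No VPA array of either gene came near a DMSO array. Of 29 measured members, 7 were higher and 1 was lower (median 0.17), against 4.54% and 2.16% of all genes. Besides EGR1 and FOS, IER3 (0.93), IER5 (0.59), the phosphatase DUSP6 (0.51), JUN (0.45) and KLF2 (0.30) rose, and FOSL2 (-0.64) fell. Without DMSO replicate 2 the count of higher members was 4, and FOSL2 lost its call without DMSO replicate 1, DMSO replicate 2 or VPA replicate 2.

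By log2 change the largest falls were smaller than the largest rises, and they included vesicle and secretory genes. SLC18A1, the vesicular monoamine transporter typical of endocrine chromaffin cells, read 66.3, 54.3 and 67.9 in the VPA arrays, against 162 and 176 in the DMSO arrays. It was 2.67-fold lower (log2 change -1.42 ± 0.18, adjusted p = 2.2e-06). NSG1, a protein of neuronal endosomes that takes part in receptor recycling, read 403, 451 and 340.0 in the VPA arrays, against 949 and 935 in the DMSO arrays (log2 change -1.25 ± 0.19, adjusted p = 4.0e-05), and all 3 of its probe sets were lower. SCGN, secretagogin, a calcium-binding protein of neuroendocrine cells, read 263, 299 and 250.4 in the VPA arrays, against 545 and 557 in the DMSO arrays. It was 2.04-fold lower (log2 change -1.03 ± 0.12, adjusted p = 6.8e-07). RPH3A, a Rab3A effector on synaptic vesicles, read 269, 215 and 225 in the VPA arrays, against 489 and 419.5 in the DMSO arrays (log2 change -0.94 ± 0.14, adjusted p = 3.4e-05). In these genes both DMSO arrays stood above every VPA array.

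LDB3, a Z-disc protein of muscle, read 32.2, 26.7 and 35.6 in the VPA arrays, against 109.5 and 73.7 in the DMSO arrays (log2 change -1.49 ± 0.17, adjusted p = 2.4e-07), and in the VPA and DMSO arrays at 6 and 24 h and in the ATRA arrays with and without VPA at 72 h it lay between 22.1 and 32.5. The DMSO arrays at 72 h stood above all others of these groups, and the others lay near the lower quartile of intensity, so the size of this change rests on values near the low end. A second probe set of LDB3 gave -0.96 and the remaining pair -0.03 and -0.13. NELL1, a secreted protein with roles in bone formation, read 57.6, 31.8 and 47.5 in the VPA arrays, against 113 and 104 in the DMSO arrays (log2 change -1.27 ± 0.19, adjusted p = 2.7e-05). PTGER3, a prostaglandin E2 receptor, read 141, 94.0 and 148 in the VPA arrays, against 256 and 227 in the DMSO arrays (log2 change -0.94 ± 0.18, adjusted p = 0.0011), while 6 of its dimmer probe sets did not pass. The falls of LRRTM2 (-0.94), an adhesion protein of excitatory synapses, and PROX1 (-0.93), a homeobox factor of neural progenitors and lymphatic endothelium, lost their calls without DMSO replicate 2. KCNJ12 lost its call without DMSO replicate 1, DMSO replicate 2 or VPA replicate 1. ST8SIA3, a sialyltransferase of the brain, fell by 0.87 on the log2 scale (adjusted p = 5.0e-04).

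Neuropeptide and granule genes moved in both directions: of 24 measured, 5 were higher and 5 lower, against 4.54% and 2.16% of all genes. NPY, neuropeptide Y, a co-transmitter of sympathetic neurons, read 6240.3, 6494 and 6163 in the VPA arrays, against 2729.5 and 2529 in the DMSO arrays. It was 2.40-fold higher (log2 change 1.26 ± 0.08, adjusted p = 1.3e-12), with a narrow spread in both groups. Also higher were CRH (0.79), a stress hormone peptide, SCG5 (0.69), a chaperone of prohormone convertase, PAM (0.60), which amidates peptides, and CALCB (0.45), a calcitonin gene-related peptide. CHGB, chromogranin B, a core protein of dense granules, read 569, 546 and 741 in the VPA arrays, against 1096 and 1073 in the DMSO arrays (log2 change -0.82 ± 0.10, adjusted p = 1.7e-06). Its relative CHGA (-0.37), the peptide galanin GAL (-0.37) and SCG3 (-0.36) fell with SCGN. Without DMSO replicate 2, 2 members were lower.

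In catecholamine synthesis and transport, 2 of 15 genes were higher and 2 lower, against 4.54% and 2.16% of all genes. MAOA, which breaks down monoamines, rose (1.00), as did GCH1 (0.41), which makes the tetrahydrobiopterin cofactor, and the transporter SLC18A2 fell (-0.76) with SLC18A1. The dimmer probe sets of MAOA changed by -0.12 and 0.16 and did not pass. A second probe set of SLC18A2 changed by -0.07 and did not pass, and the call of SLC18A2 was lost with the mean of all its probe sets. TH, the rate-limiting enzyme of catecholamine synthesis, read 139, 144 and 175 in the VPA arrays, against 139 and 144 in the DMSO arrays, and DBH, which makes noradrenaline, read 701, 784 and 809.7 in the VPA arrays, against 808 and 881 in the DMSO arrays. Neither passed the test (TH 0.10, adjusted p = 0.92, and DBH -0.14, adjusted p = 0.6). Without DMSO replicate 2, 1 member was higher and 1 lower. Of 20 sympathetic transcription factors, EYA1 (0.60), TFAP2B (0.59), KLF7 (0.40) and ISL1 (0.37) were higher and TBX2 (-0.50) lower, and 2 were higher without DMSO replicate 1, DMSO replicate 2 or VPA replicate 3. MYCN read 6703, 6569.9 and 6530.3 in the VPA arrays, against 6462 and 6365 in the DMSO arrays and did not pass (0.04, adjusted p = 0.87).

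Neurite genes gave rises of small size. GAP43, a growth cone protein, read 2861, 2868 and 2833 in the VPA arrays, against 2133 and 2206 in the DMSO arrays (log2 change 0.40 ± 0.07, adjusted p = 1.9e-04), and all VPA arrays lay above both DMSO arrays. Of 37 measured genes of the neuronal cytoskeleton, 6 were higher and 3 lower, against 4.54% and 2.16% of all genes. The other rises were the motor KIF5C (0.69), the microtubule-binding DCLK1 (0.56), vimentin VIM (0.49), BASP1 (0.43) and DPYSL3 (0.42), and the falls were the heavy neurofilament NEFH (-0.51), the microtubule destabiliser STMN1 (-0.50) and internexin INA (-0.48). NEFM, the medium neurofilament, did not pass (0.02, adjusted p = 0.93). Among 32 synaptic vesicle and exocytosis genes, SYNGR3 (0.79) was higher and BSN (-0.45) and SNAP25 (-0.33) lower, and 0 of the 3 passed without DMSO replicate 1 or without DMSO replicate 2.

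The histone genes that passed the test were all lower with VPA. Of 37 measured, 8 were lower and 0 higher, against 2.16% and 4.54% of all genes, and 29 had a negative change (median -0.13). Most histone messages end in a stem loop instead of a poly(A) tail, and the labelling here was primed with oligo-dT, so these values cover the polyadenylated share. H2AC18, which encodes an H2A, read 335, 341 and 350.3 in the VPA arrays, against 702 and 901 in the DMSO arrays (log2 change -1.22 ± 0.21, adjusted p = 2.0e-04), and it has a near-identical copy from which its signal may not be separable. H2BC21 read 290.0, 219 and 286 in the VPA arrays, against 526 and 523 in the DMSO arrays (log2 change -0.99 ± 0.14, adjusted p = 1.4e-05). H2BC12 read 1849, 1749 and 1871 in the VPA arrays, against 3209 and 3097 in the DMSO arrays (log2 change -0.79 ± 0.11, adjusted p = 1.1e-05). In all 3, both DMSO arrays were higher than any VPA array. The remaining falls were H2BC9 (-0.87), H2BC10 (-0.62), H2BC7 (-0.60), H2AC6 (-0.52) and H2BC11 (-0.37). H2BC11 was dim, with a mean of 4.50 on the log2 scale over all arrays. It lost its call without VPA replicate 1 or VPA replicate 2. Without DMSO replicate 1 the count was 5, and without DMSO replicate 2 it was 4.

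The promoters of 3 fallen histone genes are shown because 7 of the 8 hold the octamer ATTTGCAT, a known element of H2B promoters that POU factors bind. They are H2BC21 (chr1:149886633-149886932, minus strand), H2BC12 (chr6:27146809-27147108, minus strand) and H2AC18 (chr1:149842701-149843000, minus strand), from RefSeq on GRCh38.p14, written 5′ to 3′, with the octamer ATTTGCAT, CCAAT and TATAAA on either strand in capitals.
H2BC21: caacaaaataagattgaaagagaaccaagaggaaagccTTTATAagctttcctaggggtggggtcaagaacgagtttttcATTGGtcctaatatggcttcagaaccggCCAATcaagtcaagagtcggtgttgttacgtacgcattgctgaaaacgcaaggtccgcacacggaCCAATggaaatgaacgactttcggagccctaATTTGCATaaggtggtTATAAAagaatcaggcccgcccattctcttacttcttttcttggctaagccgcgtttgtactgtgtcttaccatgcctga
H2BC12: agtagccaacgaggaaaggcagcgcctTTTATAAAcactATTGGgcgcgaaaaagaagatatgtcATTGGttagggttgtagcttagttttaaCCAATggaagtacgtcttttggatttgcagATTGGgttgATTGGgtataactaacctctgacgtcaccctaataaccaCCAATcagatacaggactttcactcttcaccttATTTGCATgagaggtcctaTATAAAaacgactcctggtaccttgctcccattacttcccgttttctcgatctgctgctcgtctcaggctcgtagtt
H2AC18: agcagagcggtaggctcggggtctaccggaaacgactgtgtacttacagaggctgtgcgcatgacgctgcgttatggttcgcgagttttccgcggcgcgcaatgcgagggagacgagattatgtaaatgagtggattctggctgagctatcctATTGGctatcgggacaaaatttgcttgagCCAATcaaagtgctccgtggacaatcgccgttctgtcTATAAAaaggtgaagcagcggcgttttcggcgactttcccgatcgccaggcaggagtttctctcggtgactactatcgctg
The octamer starts 46 bases before the start site in H2BC21 and H2BC12, and H2AC18 has no match to its letters in this window. It was present in 10 of 28 other histone genes and 151 (1.57%) of 9592 promoters, and in 12 of all 15 H2B genes, fallen or not. CCAAT was present in 8 of the 8, in 24 of the 28 other histone genes and in 37.5% of all promoters. TATAAA was present in 5 of the 8, in 19 of the 28 others and in 8.59% of all. GGGCGG, the letters of the GC box, was present in 70.7% of the promoters of genes that rose, 69.3% of those that fell and 63.05% of all.

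Most genes of growth and division had small negative changes that did not pass the test. The calls in these lists stand beside 2.16% of all genes lower and 4.54% higher. In DNA replication, 37 of 40 genes had a negative change (median -0.19), and MCM5 (-0.43), a subunit of the replicative helicase, TYMS (-0.31), which makes thymidylate, and RPA1 (-0.29) were called. In G2 and mitosis the median of 39 genes was -0.23, 36 of them negative, and the spindle motor KIF11 (-0.29) was the 1 call. MKI67, a marker of cycling cells, read 1112, 1092 and 1121 in the VPA arrays, against 1270.1 and 1353 in the DMSO arrays and did not pass (-0.24, adjusted p = 0.18). Of 32 ribosome biogenesis genes (median -0.15), RRP12 (-0.57), PPAN (-0.41) and DKC1 (-0.29) were lower. The negative lean was not particular to growth and division. Of 49 respiratory chain genes 43 were negative and 6 positive (median -0.11). Of 18 acetyltransferase and acetyl reader genes 14 were negative and 4 positive (median -0.22). Without any 1 of the 5 arrays, 0 of the mitosis and ribosome calls and at most 1 of the replication members were called. Of 18 sterol synthesis genes, IDI1 (-0.61), HMGCS1 (-0.49) and SQLE (-0.33) fell, and 1 was called without DMSO replicate 1 or DMSO replicate 2. CDKN1A, the p21 inhibitor of cyclin-dependent kinases, read 97.0, 194 and 98.8 in the VPA arrays, against 117 and 144 in the DMSO arrays, its groups overlapping (-0.08, adjusted p = 0.94).

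The targets of VPA themselves were among the genes that did not pass. HDAC1 read 1211, 1357 and 1428 in the VPA arrays, against 1261 and 1281 in the DMSO arrays (0.06, adjusted p = 0.86) and HDAC2 read 2012, 1916 and 1928 in the VPA arrays, against 1835 and 1828 in the DMSO arrays (0.09, adjusted p = 0.6). Of 8 HDAC genes, the class IIa members HDAC9 (0.63) and HDAC5 (-0.70) were called, and HDAC9 lost its call without DMSO replicate 1 while HDAC5 lost it without DMSO replicate 1, DMSO replicate 2 or VPA replicate 1. Of 20 retinoid response genes, 3 were higher and 1 lower, against 4.54% and 2.16% of all genes. CRABP2, a small binding protein that delivers retinoic acid to RAR, read 813, 788 and 901 in the VPA arrays, against 277 and 294 in the DMSO arrays. It was 2.91-fold higher (log2 change 1.54 ± 0.19, adjusted p = 1.4e-06), and PLAT (0.74) and NRIP1 (0.57) rose while the receptor RARA (-0.66) fell. CYP26A1, RARB and DHRS3, direct targets of retinoic acid receptors, did not pass (CYP26A1 at -0.16, adjusted p = 0.76, RARB at -0.05, adjusted p = 0.89 and DHRS3 at 0.14, adjusted p = 0.83) and lay between 17.2 and 39.9 in all 5 arrays.

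The calls in the smaller lists are given beside 6.7% of all genes called. Of 24 apoptosis genes, the death receptor TNFRSF10B (1.25) and APAF1 (0.62) were higher, and BID (-0.47) and DIABLO (-0.31) lower. The dimmer probe sets of TNFRSF10B changed by 0.09 and 0.04, and those of APAF1 by 0.05 and 0.16, and did not pass. Among 28 readouts of BMP, TGF-beta and Notch, HES1 (0.84), JAG2 (0.67) and TGFBI (0.35) rose, while the inhibitory SMAD7 (-0.83) and SMAD6 (-0.47) and the BMP target ID3 (-0.43) fell. TGFBI was dim (mean of 4.26 on the log2 scale over all arrays) and lost its call whichever VPA array was left out. HSPB1 (0.84) and BAG3 (0.47) rose and HSPH1 (-0.28) fell among 14 heat shock genes. Of 12 neurotrophin and RET genes, BDNF (0.62) and NRTN (0.41) were higher at low intensities, and RET (0.20, adjusted p = 0.61) and NTRK2 (0.04, adjusted p = 0.95) did not pass. NRTN lost its call whichever of the 5 arrays was left out, and 0 of the list passed without DMSO replicate 1. ABAT, the GABA transaminase that VPA is known to inhibit as a protein, fell by 0.46 on the log2 scale (adjusted p = 0.0011). At 6 h ABAT was higher with VPA (1382, 1346 and 1353, against 834.9, 951.7 and 852.5 with DMSO). At 24 h it read 787, 832 and 860 with VPA, against 836, 925 and 1049 with DMSO. At 72 h it read 828, 877 and 808 with ATRA and VPA, against 534, 558 and 638 with ATRA. In a list of genes that HDAC inhibitors are reported to raise, 5 of 24 were higher (among them GSN at 0.94, the actin-severing gelsolin) and 3 lower (among them GLRX at -0.54 and CRIP1 at -0.51). In a list reported to fall, 1 of 16 was lower and 1, ERBB2, higher. ERBB2 lost its call whichever VPA array was left out and with the mean of all its probe sets. Its second probe set changed by 0.02. Of 8 metallothioneins, MT1X (0.57) and MT2A (0.56) were higher, and 0 passed without DMSO replicate 1 or DMSO replicate 2. Of 28 ER and amino acid stress genes, TRIB3 (0.60) was higher and SLC7A5 (-0.51), an amino acid transporter, and VLDLR (-0.49) lower, and 0 of the 28 passed without DMSO replicate 2. Of 36 fatty acid genes, ACADVL (0.49), an enzyme of mitochondrial beta-oxidation, was higher, and the desaturase SCD (-0.45) and the carrier FABP5 (-0.34) lower. Other calls were the lysine acetyltransferase KAT6B (-0.47), the antiproliferative TOB1 (-0.45), cyclin G2, CCNG2 (0.40), the MAX-binding MXI1 (0.43), the kainate receptor subunit GRIK2 (-0.31) and the mitochondrial NDUFAB1 (-0.22), and each of these lost its call without DMSO replicate 2. GRIK2 was dim, with a mean of 4.03 on the log2 scale over all arrays. CCNG2 and NDUFAB1 also lost their calls whichever VPA array was left out. The Schwann and glial, haematopoietic, co-repressor, G1 cyclin and inositol lists had 0 calls in either direction in limma. Without DMSO replicate 1 the counts were 2 higher and 0 lower in apoptosis and 1 of each in BMP, TGF-beta and Notch, and without DMSO replicate 2 the reported rises held 2 higher and 2 lower.

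**Figure D3:**
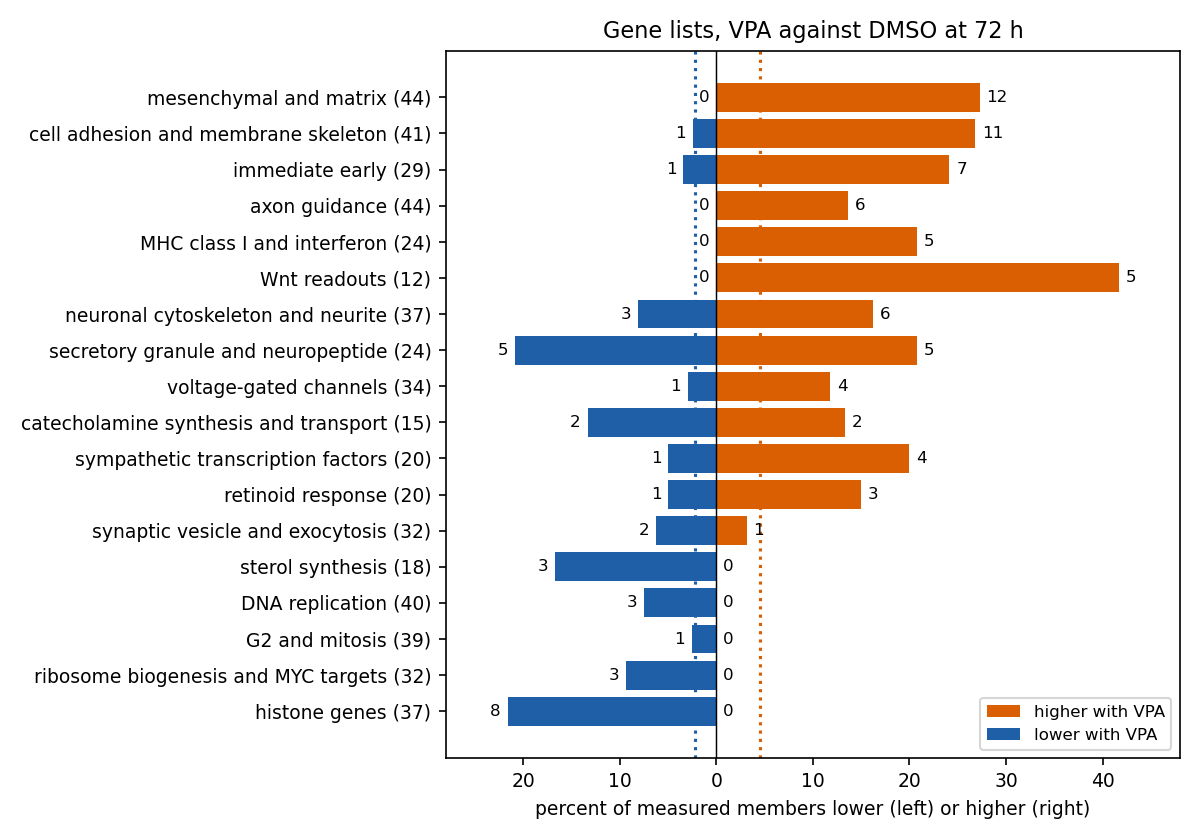
Percent of the measured members of 18 gene lists that were lower (blue, left) or higher (orange, right) with VPA at 72 h, with the count at each bar and dotted lines at the shares over all genes (2.16% lower, 4.54% higher). Matrix genes had 12 of 44 higher and 0 lower, histone genes 8 of 37 lower and 0 higher.

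The change at 72 h was set beside the same contrast at 6 h, with 1334 genes called (11.2% of all genes, 6.5% higher and 4.72% lower), and at 24 h, with 1452 (12.2%, 9.72% higher and 2.5% lower), each with its own VPA and DMSO arrays. The split at 24 h was 829 higher and 606 lower after a further quantile normalization, and 743 higher and 614 lower without DMSO replicate 1 at 24 h, against 1155 and 297. Of the 539 rises, 233 (43.2%) were also higher at 6 h, where they made up 30.1% of the 773 rises, and 374 (69.4%) at 24 h, 32.4% of the 1155. For the 257 falls the overlap was 75 (29.2%, and 13.4% of 561) and 71 (27.6%, and 23.9% of 297). At both earlier times 207 rises and 34 falls were called, and at neither 139 rises and 145 falls. CXADR was an early gene, with 261, 299 and 308 in VPA cells at 6 h, against 60.3, 64.3 and 46.4 in DMSO cells (log2 change 2.33 ± 0.14, adjusted p = 6.7e-12). IFI16 was a late one: at 24 h it read 57.3, 38.5 and 37.9 with VPA and 29.3, 31.1 and 37.5 with DMSO (log2 change 0.42 ± 0.15, adjusted p = 0.068).

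The test of the difference in VPA effect between 72 h and 6 h called 239 genes (2.01%; 1.25% with a higher and 0.766% with a lower effect at 72 h), and that between 72 h and 24 h called 66 (0.555%; 0.269% and 0.286%). After the quantile normalization the split between 72 h and 24 h was 58 higher and 31 lower, against 32 and 34. LUM differed in both (by 2.35 and 1.63 log2). In VPA cells LUM averaged 710.4 ± 43 at 6 h, 581 ± 10 at 24 h and 1108 ± 11 at 72 h (SD, n = 3 each). The vehicle level was lower at each later time: in DMSO cells LUM averaged 657 ± 46, 328 ± 45 and 201 ± 19 at the same times (SD, n = 3, 3 and 2). DKK1 read 2943, 2682 and 2524 in VPA cells at 6 h, against 2314, 2202 and 2064 in DMSO cells, whose level was far lower at 72 h. NSG1 read 482, 467 and 525 in VPA cells at 6 h, against 499, 527 and 524 in DMSO cells, whose level was higher at 72 h. HTR2B changed sign: at 6 h it read 38.4, 38.4 and 39.8 with VPA and 57.1, 64.6 and 64.7 with DMSO (log2 change -0.66 ± 0.14, adjusted p = 0.0011). Histone genes gave 1 fall at 6 h and 4 falls and 2 rises at 24 h, and the matrix list gave 2 rises at 6 h and 13 rises and 1 fall at 24 h. Fitted on only the arrays compared, 250 genes were called at 24 h and 3 in the difference between 72 h and 24 h. DMSO replicate 1 at 24 h, the array that stood apart, enters each value at 24 h.

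**Figure D4:**
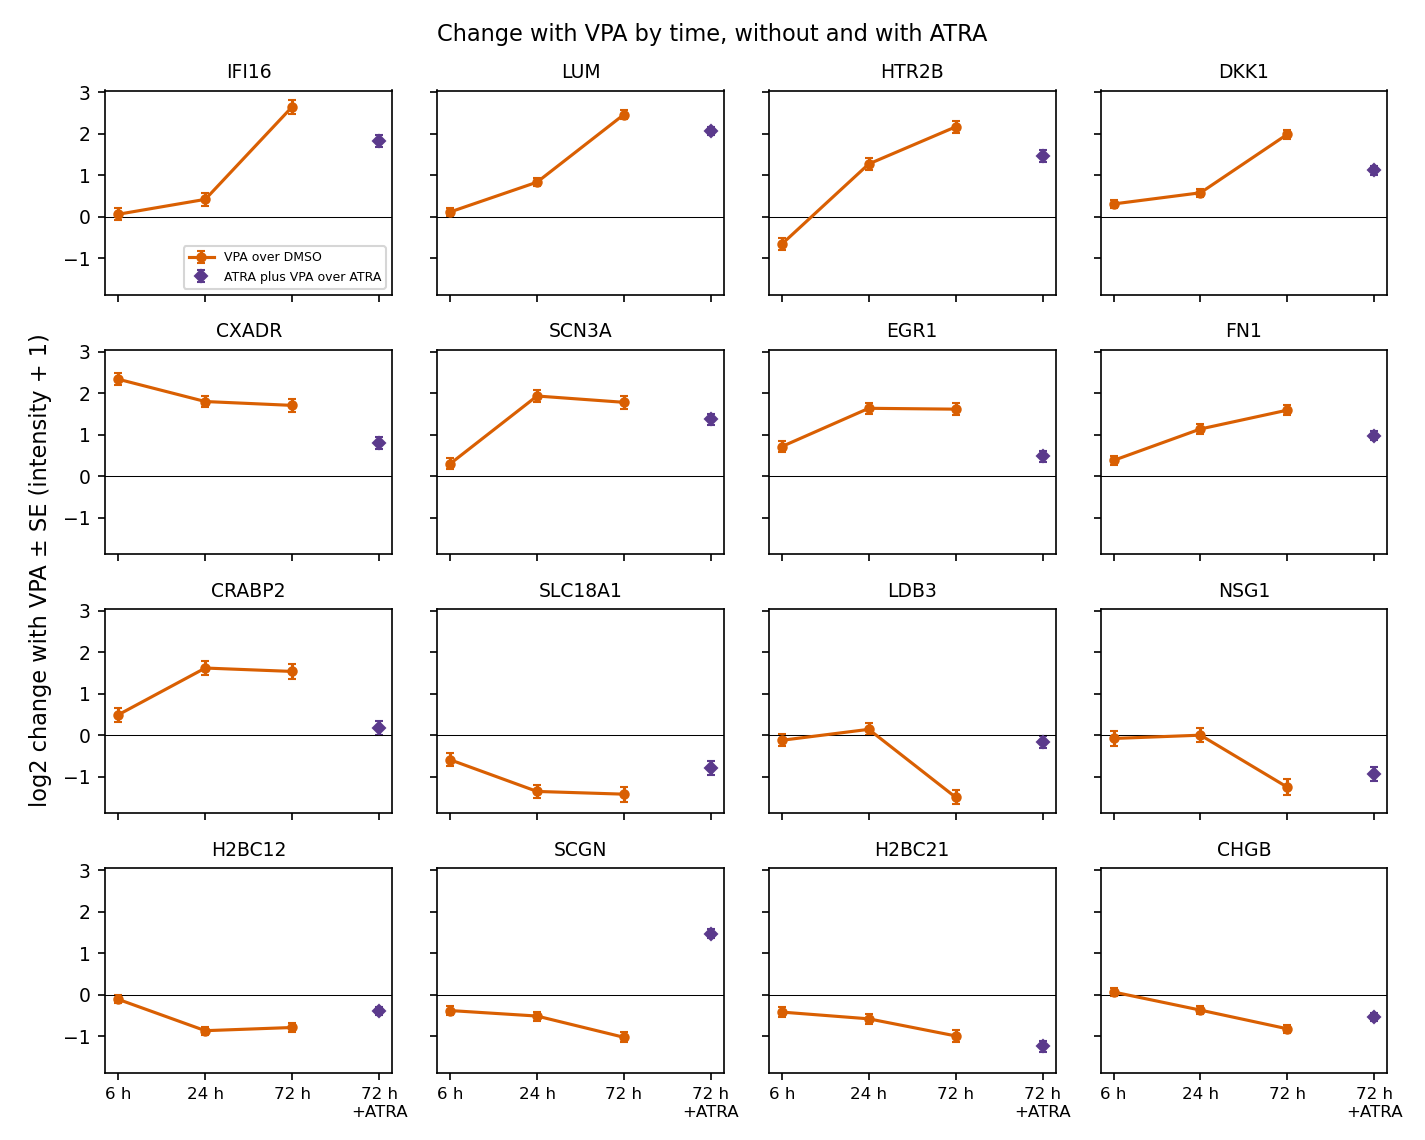
Log2 change (± standard error) for VPA over DMSO at 6, 24 and 72 h, and for ATRA plus VPA over ATRA at 72 h, for 16 genes. CXADR is high from 6 h on, IFI16 is near 0 at 6 h and at 2.65 at 72 h, and SCGN is below 0 with VPA alone and at 1.47 with ATRA present.

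VPA was also given on top of ATRA, and this contrast shares no arrays with VPA against DMSO. It called 2472 genes (20.8%), with 14.6% of all genes higher and 6.18% lower. After the further quantile normalization 1267 were higher and 1302 lower, against 1737 and 735. Of the 539 rises with VPA alone, 399 (74.0%) were also higher when VPA was added to ATRA, 23.0% of the 1737 rises there, and of the 257 falls 81 (31.5%) were lower, 11.02% of the 735. LUM averaged 611 ± 28 with both agents and 146 ± 16 with ATRA alone (SD, n = 3 each; log2 change 2.06 ± 0.10, adjusted p = 3.7e-15). IFI16 read 541, 803 and 753 with both agents, against 204, 177 and 200.4 with ATRA (log2 change 1.83 ± 0.15, adjusted p = 5.6e-10). In both genes all combination arrays were the higher ones.

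The difference between these 2 VPA effects was tested as an interaction, which called 232 genes (1.95%), 1.33% of all genes with a higher VPA effect in the presence of ATRA and 0.623% with a lower one. After the quantile normalization 129 were higher and 163 lower, against 158 and 74. SCGN fell with VPA alone, while it read 899.8, 862 and 954 with both agents, against 311, 326 and 346 with ATRA (difference of the effects 2.49 log2, adjusted p = 3.2e-11). GDF15, a stress-induced cytokine, did not pass with VPA alone (-0.09, adjusted p = 0.86) and read 1080.2, 1193 and 1493 with both agents, against 154, 226 and 149 with ATRA (difference 2.93, adjusted p = 2.7e-10). CRABP2 went the other way. It read 4025, 4457 and 4319 with both agents, against 3473, 3942 and 3978 with ATRA, levels far above those with VPA alone (difference -1.37, adjusted p = 0.0019). PTPRK, a receptor phosphatase at cell contacts, rose with VPA alone (1.04) and read 81.5, 92.0 and 81.2 with both agents, against 119.7, 118 and 138 with ATRA (difference -1.59, adjusted p = 2.3e-06). CXADR (-0.91), EGR1 (-1.13) and DKK1 (-0.87) had smaller VPA effects in the presence of ATRA.

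**Figure D5:**
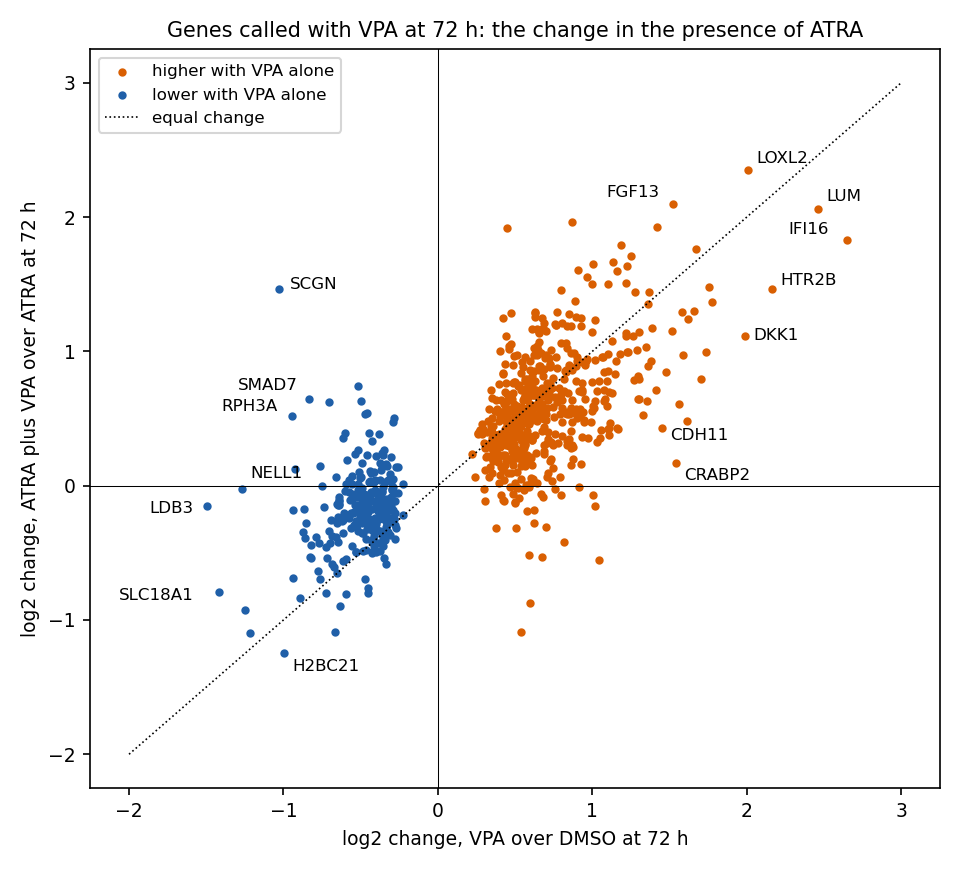
Log2 change for VPA over DMSO (horizontal axis) and for ATRA plus VPA over ATRA (vertical axis) at 72 h for the 796 genes called with VPA alone, with the dotted line marking equal change. Most points lie in the quadrants of equal sign (506 of 539 rises, 199 of 257 falls), and SCGN stands apart at -1.03 and 1.47.

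Set directly against ATRA at 72 h, VPA cells differed in 3800 genes (32%), 2392 higher (20.1%) and 1408 lower (11.8%), or 1849 higher and 1710 lower after the quantile normalization. LUM was 7.57-fold higher with VPA than with ATRA, and KCTD12, an auxiliary subunit of GABA-B receptors, was 6.69-fold higher (log2 change 2.74 ± 0.10, adjusted p = 7.8e-19). CRABP2 was 4.55-fold lower (log2 change -2.19 ± 0.17, adjusted p = 2.1e-11). Against DMSO at 72 h, KCTD12 changed by -0.29 on the log2 scale with VPA and did not pass. In replication, 29 of 40 genes were higher with VPA than with ATRA, and in mitosis 35 of 39. The mean 3'/5' log2 ratio of the control probe sets, a sign of RNA quality, was 1.09 ± 0.16 in VPA arrays (SD, n = 3) and 1.06 ± 0.17 in DMSO arrays (SD, n = 2), while it was 1.82 ± 0.17 in ATRA arrays (SD, n = 3). With that ratio as a covariate, 2832 genes differed between VPA and ATRA cells, 1953 higher and 879 lower.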

How the data were processed

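Total RNA of BE(2)-C cells was read on 35 Affymetrix arrays. The deposited values are RMA intensities on a linear scale, per the submitters' processing notes; the RMA version, and which arrays were normalized together, are not given in the sources used here. All 22930 probe sets were read. Left out of the gene tests were 210 control or mouse probe sets with a symbol, 3292 probe sets with no symbol and 125 with several. Among the other 19303, the probe set with the highest mean stood for each of 11884 genes (4451 have several). Symbols came from the platform annotation, 11874 matched to RefSeq by ID. The deposited intensities were put on a log2 scale with a pseudocount of 1. Limma 3.58.1 (R 4.3.3) fitted 12 group means to 35 arrays (23 residual and 5.5 prior degrees of freedom) with Benjamini-Hochberg adjustment over 11884 genes and a threshold of 0.05.

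Tested on simulated data for VPA against DMSO at 72 h over 11884 genes, the fit called 94% of genes planted at log2 1 or -1, 76% at 0.5 and 50% at -0.5, with 7 calls among the others. The simulated noise was drawn independently for each gene and array and held no shift of a whole array. The 7 calls are therefore no error rate for the real comparison. The number of arrays limits the precision. Genes named are the 15 largest rises and falls with a mean of at least 64 in the brighter group and arrays that do not overlap, the 5 largest changes of each list, the 6 largest rises and falls of each other comparison, and 20 genes of prior interest; other called members are named where their list is described. Members and lists were chosen with earlier results of these data known. Alternatives were the replicate block, pseudocount, probe set summary, filter, array weights, trend, quantile step, 3'/5' covariate, arrays compared alone and leaving out arrays. DMSO and VPA arrays at 72 h with the same replicate number correlated in their deviations from the group means at 0.0781 and -0.0045. The deviations of the 2 DMSO arrays mirror each other, so these values cannot decide whether the numbers pair the arrays. The main fit did not pair them.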

Additional observations from a re-analysis of the deposited data

Results flagged for a closer look

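The VPA effect differed between 72 h and 6 h in 239 genes, by a test of the difference itself. On the log2 scale the difference was largest, among the genes with a mean of at least 64, in HTR2B (2.82), IFI16 (2.59), LUM (2.35), FGL1 (2.07), TSPAN8 (2.04), IGFBP3 (1.97), ZDHHC11 (-1.93), LDB3 (-1.37), CDK5R2 (-1.37), CCNE1 (-1.19), NSG1 (-1.17) and KCNJ12 (-1.17); a positive value means a higher VPA effect at 72 h. Between 72 h and 24 h it differed in 66 genes, led by IFI16 (2.23), LUM (1.63), LGR5 (1.59), TSPAN8 (1.57), DKK1 (1.41), FGF13 (1.00), LDB3 (-1.64), NSG1 (-1.25), MAN1C1 (-1.20), EDNRB (-1.15), DENND1A (-1.13) and NELL1 (-1.11). The difference at 24 h includes the DMSO array that stood apart.

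The effect of VPA with ATRA present differed from that of VPA alone in 232 genes, by the interaction test. These were led by GDF15 (2.93), SCGN (2.49), KCTD12 (2.05), SPOCK1 (2.01), RAB38 (1.77), PTGIR (1.73), SHOX2 (-1.63), PTPRK (-1.59), TRPA1 (-1.47), CRABP2 (-1.37), PNMT (-1.33) and ITGA8 (-1.23), a positive value meaning a higher VPA effect with ATRA.

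Outside the named genes, 57 of 3292 probe sets with no symbol (1.73%) passed between VPA and DMSO at 72 h, 34 higher and 23 lower. Their 2 largest rises were 1.27 and 1.17, and their 2 largest falls -1.49 and -0.996, on the log2 scale. The 3292 include any control probe set without a symbol. No group has 4 arrays or more, so single arrays were not tested as outliers.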

How the results depend on the processing

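For VPA against DMSO at 72 h, the count of 796 was 1749 with array weights (52.4% higher, against 67.7% in the main fit), 790 with the replicate block, 740 of them shared, and 318 to 998 when 1 array was left out. The extremes were DMSO 72 h replicate 2 (318, 77% higher) and DMSO 24 h replicate 1 (998), and 390 genes (80.3% higher) were called without DMSO 72 h replicate 1. At 6 h the count of 1334 was 2135 with array weights and 933 to 1603 with 1 array left out. At 24 h, 1452 was 2459 with array weights, 250 with only the arrays compared, and 945 to 1810 with 1 left out, and without DMSO 24 h replicate 1 the lower calls were 614, against 297. For 72 h minus 6 h, 239 was 698 with array weights, 377 with only the arrays compared and 126 to 344 with 1 left out. For 72 h minus 24 h, 66 was 309, 3 and 22 to 107 under the same 3 changes. For VPA added to ATRA, 2472 was 1643 to 2870 with 1 left out. The interaction count of 232 was 757 with array weights, 354 with a pseudocount of 32 and 95 to 482 with 1 left out. VPA against ATRA, 3800, was 3184 to 4151 with 1 left out and 2832 with the 3'/5' covariate (879 lower, against 1408). With the replicate block the other counts were 1332, 1470, 247, 59, 2505, 262 and 3820 in the order above, each within 1.5 times. ITGB1 turned to -0.0684 with the mean of all probe sets (adjusted p = 0.658), where the dimmer probe sets enter. The cause of the other moves was not tested. Leaving out a DMSO 72 h array leaves 1, assumed to vary like the other groups. Low intensities, with no detection calls, limit what can be said of dim genes.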
